A study of Mus musculus with 6 samples.

Results

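The accessible regions that ZBTB21 occupies in mouse embryonic stem cells (mESCs) were examined in the peak list that was deposited for the untreated ATAC-seq libraries. ATAC-seq uses the Tn5 transposase to cut and tag open DNA. A peak of the list was taken as bound when it shared at least 1 bp with a ZBTB21 ChIP-seq peak that the study lists for mESCs, and 814 of 41014 peaks (1.98%) met this rule. The untreated group consisted of 2 libraries of V6.5 cells, an mESC line, labelled as untreated. A treatment text that all 6 samples share speaks of doxycycline-treated degron cells, so the labels leave unsettled whether the untreated cells were engineered. The labels describe growth on irradiated mouse embryonic fibroblasts in serum with LIF, while the study's methods name no feeder layer and add the inhibitors CHIR99021 and PD0325901 to serum and LIF. A single list carries the name of this condition, so no value per replicate and no depth per library were at hand, and no test between samples was possible. The ATAC-seq libraries of ZBTB21-degron mESCs at 0 h and 6 h of the auxin IAA (2 libraries each) were not analysed here. ZBTB21 was located by the study with a GFP antibody in mESCs that carry a degron and GFP on the endogenous protein, so binding and accessibility were measured in separate samples and, if the untreated cells were not engineered, in different cells. Intervals below are 95% intervals over regions of the genome (Wilson for shares, order statistics for medians), and they say nothing about the spread between cultures.

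ZBTB proteins carry a BTB domain, through which they pair with each other and recruit cofactors, and C2H2 zinc fingers, through which they contact DNA. Accessible promoters of housekeeping genes are typically rich in CpG dinucleotides and hold sites for ETS factors, NRF1 and SP1, the last of which binds the GC box. The cAMP response element (CRE) is a palindrome recognised by bZIP factors of the CREB and ATF family, and it is a classic element of immediate early genes and of many CpG-rich promoters.

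The exact CRE, TGACGTCA, showed the largest difference in share between bound and other peaks among all sequences of 8 bases, and for this reason examples are shown first. Each line gives mm10 sequence on the plus strand from the GRCm38 RefSeq assembly, with the CRE in capitals. The promoter examples are among the 10 highest-scored promoter peaks with a CRE, or hold genes that the study or textbooks single out. The other examples are among the 6 highest-scored peaks with a CRE away from promoters. Their label "near" gives only the nearest gene. The TSS lay 25318 bp (Gm15706), 25734 bp (Zdbf2) and 58464 bp (Zswim6) from the edge of the peak. Windows that reach into an annotated exon are cut to 28 bases.
Ell2 promoter, chr13:75707260-75707319: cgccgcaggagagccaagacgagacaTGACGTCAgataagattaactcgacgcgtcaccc
Zfand2a promoter, chr5:139484583-139484642: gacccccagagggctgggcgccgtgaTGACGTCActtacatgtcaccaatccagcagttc
Pdcl3 promoter, chr1:38987586-38987645: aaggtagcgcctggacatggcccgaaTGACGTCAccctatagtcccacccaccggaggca
Pacrgl promoter, chr5:48372317-48372376: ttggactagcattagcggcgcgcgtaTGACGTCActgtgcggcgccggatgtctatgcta
Tinf2 promoter, chr14:55681856-55681883: gagggagctgTGACGTCAcgaggtcccc
Amn1 promoter, chr6:149188715-149188742: taaacctaaaTGACGTCAcagagttgga
Mmab and Mvk promoter, chr5:114443752-114443811: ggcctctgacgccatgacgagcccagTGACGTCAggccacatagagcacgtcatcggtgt
Znrd1 promoter, chr17:36958583-36958610: cgttgggtcgTGACGTCAtaatcaatgg
Dusp1 promoter, chr17:26508582-26508641: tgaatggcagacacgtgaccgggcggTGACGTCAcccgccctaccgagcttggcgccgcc
Ppp1r15a promoter, chr7:45526263-45526290: ggcgctgtgcTGACGTCAccggagaggc
Near Gm15706, chr6:145276347-145276406: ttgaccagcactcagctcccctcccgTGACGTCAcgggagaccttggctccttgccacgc
Near Zdbf2, chr1:63247285-63247344: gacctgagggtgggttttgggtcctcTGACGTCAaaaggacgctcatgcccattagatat
Near Zswim6, chr13:107831319-107831378: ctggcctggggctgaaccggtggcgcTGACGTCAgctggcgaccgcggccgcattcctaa

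A longer stretch shows such an element in its setting. The 300 bp around the centre of the peak near Tex44 (chr1:86434385-86434684, outside annotated exons) had 68.3% GC and 24 CpG dinucleotides, with 1 CRE, again in capitals.
Near Tex44: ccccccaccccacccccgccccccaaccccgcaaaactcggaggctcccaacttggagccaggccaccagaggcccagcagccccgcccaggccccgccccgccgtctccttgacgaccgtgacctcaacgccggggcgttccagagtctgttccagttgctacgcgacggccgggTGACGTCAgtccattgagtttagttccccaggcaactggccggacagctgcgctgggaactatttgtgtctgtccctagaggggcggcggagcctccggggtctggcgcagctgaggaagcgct

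The bound peaks lay mainly at promoters. Of the 814 bound peaks, 541 (66.5%, interval 63.1 to 69.6%) were within 1 kb of a transcription start site (TSS) of a RefSeq transcript, against 15.6% of all peaks in the list. A further 95 (11.7%) lay between 1 and 10 kb from a TSS, 80 (9.83%) lay farther away inside a protein-coding gene, and 98 (12.0%) were intergenic. Seen from the list, 8.45% of the promoter peaks were bound, compared with 1.08% of peaks at 1 to 10 kb, 0.655% of gene-body peaks and 0.721% of intergenic peaks.

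**Figure D1:**
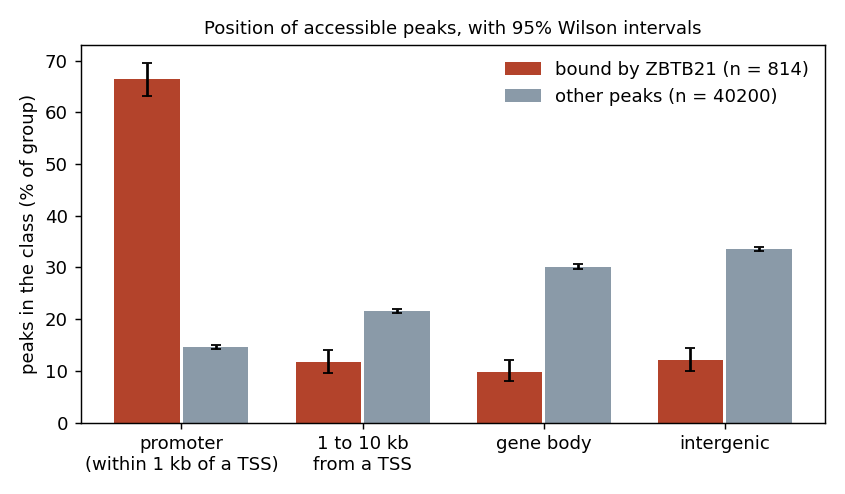
Share of peaks (%) in 4 classes of position for the 814 peaks bound by ZBTB21 and the other 40200 peaks of the list, with Wilson 95% intervals as error bars. Promoters hold 66.5% of the bound peaks and 14.6% of the others.

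At promoters, the bound peaks were placed close on the start site. Of the 541 bound promoter peaks, 523 (96.7%) covered a TSS, whereas 4799 of the other 5865 promoter peaks (81.8%) did. The centre of the bound promoter peaks lay a median of 84 bp from the nearest TSS, and that of the other promoter peaks 121 bp. Divergent starts of different genes were sought in each peak and in the flanks that define a promoter peak, so they need not lie inside it. They were present at 104 bound promoter peaks (19.2%, interval 16.1 to 22.8%) and at 538 of the other promoter peaks (9.17%, interval 8.46 to 9.94%). Bound promoter peaks were wider and covered a TSS more often. The searched window grows with peak width and follows the placement of the peak, so these shares are not independent of either. Over all bound peaks the median distance between centre and TSS was 170 bp (interval 147 to 194), while it was 17997 bp for the other peaks.

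The ZBTB21 peaks and the listed ATAC peaks overlapped in part only. A ZBTB21 peak without a listed ATAC peak need not lie in closed chromatin, since the depth behind the list is unknown. Of the 1827 ZBTB21 peaks, 801 (43.8%, interval 41.6 to 46.1%) held a listed ATAC peak and 1026 held none. Each of the 814 bound peaks met a single ZBTB21 peak, and 13 ZBTB21 peaks held 2 ATAC peaks. ZBTB21 peaks covered a median of 88.9% of the bound ATAC peak, and 274 bound peaks (33.7%) lay wholly inside a ZBTB21 peak. The centres of both peaks were a median of 108 bp apart. The smallest overlaps were 72, 113 and 117 bp, and the nearest peaks that were not counted as bound lay 3, 30 and 40 bp from a ZBTB21 peak. Widening the rule to a gap of 500 bp would have added 56 peaks.

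Bound peaks were wider and carried higher scores than the rest of the list. The score, a whole number deposited for each peak, ran from 540 to 953 in the list. The sources used here do not state its meaning, so it was used only to rank peaks within the list. The median score of the bound peaks was 770 (interval 762 to 784), against 695 for the other peaks. At promoters the medians were 791 for bound and 736 for other peaks, and elsewhere they were 742 and 689. The median width was 745 bp (interval 722 to 773) for bound peaks and 544 bp for the others. At promoters these widths were 808 and 739 bp, and away from promoters 622 and 520 bp. A wide peak meets a ZBTB21 peak more easily, so width is not independent of the rule. When the centre of the ATAC peak had to lie inside the ZBTB21 peak, the median width was 739 bp. Among bound peaks, the score did not rank with the width of the ZBTB21 peak (Spearman's rho -0.02 across 814 regions that come from the same lists, as a description).

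**Figure D2:**
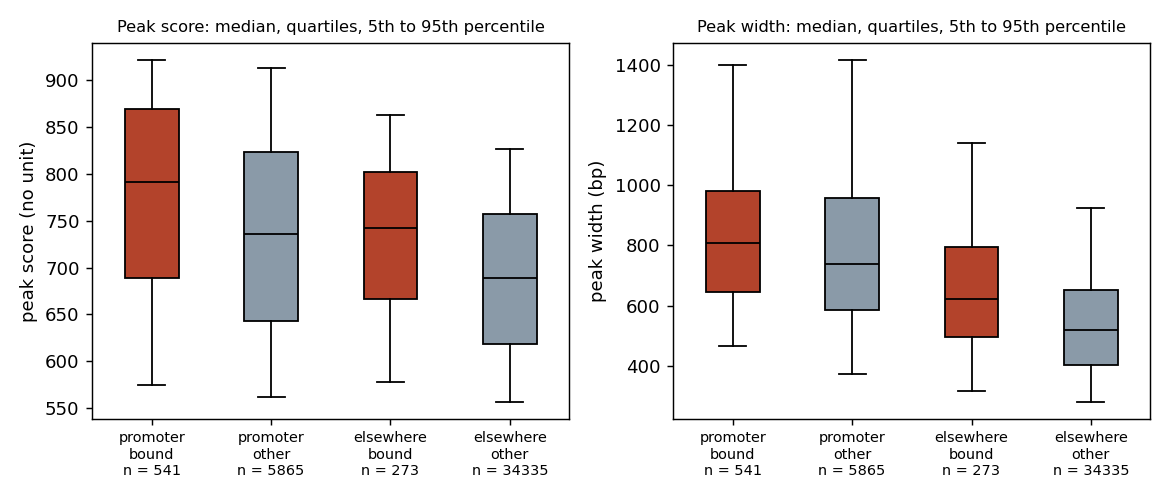
Peak score (left, no unit) and peak width (right, bp) for bound and other peaks, at promoters and elsewhere. Lines mark medians, boxes quartiles and whiskers the 5th to 95th percentile, and the bound peaks have the higher median in each pair.

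The share of bound peaks rose with the score inside both classes of position. Among promoter peaks with a score of 540 to 599, 57 of 880 (6.48%) were bound, and among those with a score of 900 to 953, 75 of 526 (14.3%, interval 11.5 to 17.5%). Shares stayed between 5.60 and 7.51% in the bins up to a score of 799 and were 10.8% and 12.8% in the next bins. Away from promoters the share was 0.426% in the lowest bin and 6.98% in the highest, where it rests on 6 of 86 peaks (interval 3.24 to 14.4%).

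**Figure D3:**
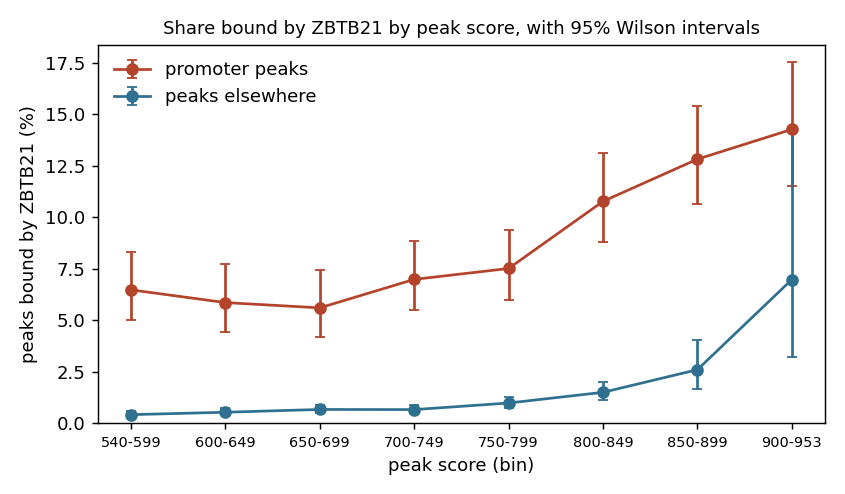
Share of ATAC peaks bound by ZBTB21 (%) by bin of peak score, for promoter peaks and for peaks elsewhere, with Wilson 95% intervals. The promoter share is 6.48% in the lowest and 14.3% in the highest bin.

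The peaks with extreme values span a variety of genes. The highest score, 951, was found at the promoter of Abcf2, an ABC-family ATPase (chr5:24577092-24577998). Next came Mir22hg, the host transcript of the microRNA miR-22, with 950, and Napa, the SNAP adaptor of membrane fusion, with 945. The shared promoter of Mmab and Mvk and that of Phlpp1 had 944 each. Ubap1 and Wdfy2 had 943, Ghitm had 942, and Ndufv1, a core subunit of respiratory complex I, had 941, as did the AW549877 and Gm2093 promoter. All 10 of these peaks were promoter peaks that covered a TSS. Of the 10 lowest, with scores of 541 to 548, 7 were promoter peaks too, namely those of Map2k1, Trappc9, Ppig, Tgoln1, Fdxacb1, Zc3h18 and Ube2b. The other 3 lay in the bodies of Cldn14 and Elfn1 and 13446 bp from the TSS of Slc25a3. An intergenic peak nearest to C230035I16Rik also had 548, and its tie with Ube2b was settled by chromosome order.

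Widths ran from 165 to 3421 bp. The widest bound peak covered the 4930526I15Rik start on chromosome 9 (3421 bp, score 623) and held 4 CREs, and an intergenic peak of 1803 bp lay 15314 bp from the same start. Phc1, a polycomb group gene, had a peak of 2148 bp and Rnf44 of 1858 bp. The narrowest, 165 bp in a gene body 22839 bp from the Atoh7 TSS, held a CRE. The farthest bound peak from any TSS lay 450902 bp from that of 1810013L24Rik (227 bp wide, score 789), and 13 bound peaks were more than 100 kb away.

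In several places a single broad ZBTB21 peak reached over neighbouring accessible sites. The widest such ZBTB21 peak, 3566 bp, took in the promoter peak of Ier2, an immediate early gene (score 780, with a CRE), and a second peak 1112 bp from its TSS (score 709). Similar pairs were present at Traf4 (scores 733 and 677), Abt1 (643 and 670), Gga1 (661 and 810) and Ormdl3, a regulator of sphingolipid synthesis (880, with a CRE, and 701).

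Base composition differed from the rest of the list at promoters and elsewhere. In the 300 bp around the peak centre, the median GC content was 58.3% for bound and 52.7% for other peaks. At promoters it was 61.7% and 60.0%, and elsewhere 53.3% and 52.0%. The ratio of observed to expected CpG had a median of 0.742 in bound and 0.244 in other peaks. At promoters these medians were 0.851 and 0.657, and elsewhere 0.360 and 0.217. Bound peaks away from promoters lay between other such peaks and the promoter peaks on this scale.

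The CRE (TGACGTCA, its own reverse complement) was present in the 300-bp window of 131 bound peaks (16.1%, interval 13.7 to 18.8%), compared with 0.676% of all peaks placed on chromosomes. Promoter peaks had it in 85 of 541 bound (15.7%) and in 55 of 5865 other cases (0.938%). Away from promoters it was found in 46 of 273 bound (16.8%) and in 91 of 34321 other peaks (0.265%). Read the other way, 131 of the 277 peaks with a CRE were bound (47.3%, interval 41.5 to 53.2%). This share was 60.7% at promoters (85 of 140), 39.6% in gene bodies (21 of 53), 38.9% at 1 to 10 kb (14 of 36) and 22.9% between genes (11 of 48).

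Because the CRE itself contains a CpG, it was also counted within CpG-rich promoters. Of promoter peaks whose observed to expected CpG ratio was at least 0.75, 66 of 384 bound (17.2%) and 27 of 2272 others (1.19%) held a CRE. Below that ratio these shares were 12.1% (19 of 157) and 0.779% (28 of 3593).

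**Figure D4:**
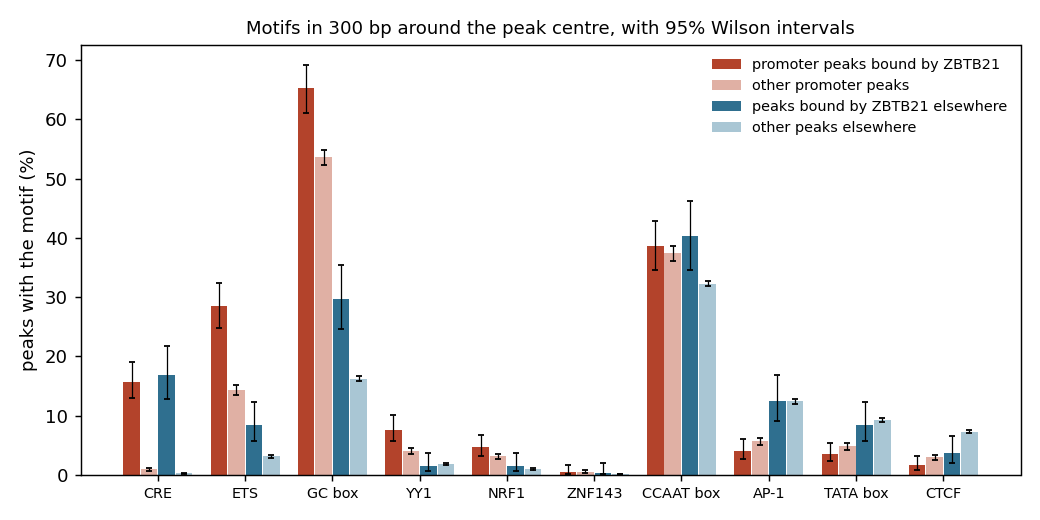
Share of peaks (%) with each of 10 motifs in the 300 bp around the peak centre, in bound and other peaks at promoters and elsewhere, with Wilson 95% intervals. The CRE is in 15.7% of bound promoter peaks and 16.8% of bound peaks elsewhere, and in 0.938% and 0.265% of the others.

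Other motifs differed less or followed position. The ETS core (CCGGAAG, both strands) was in 28.5% of bound and 14.3% of other promoter peaks, and in 8.42% and 3.11% of those elsewhere. The GC box (GGGCGG) was in 65.2% and 53.6% at promoters and in 29.7% and 16.2% elsewhere. The YY1 motif (AAGATGGC) was in 7.58% of bound and 3.97% of other promoter peaks, while elsewhere the shares were 1.47% and 1.86% with overlapping intervals. NRF1 (GCGCATGC) was in 4.62% and 3.10% at promoters, also with overlapping intervals. The CCAAT box (CCAAT) was in 38.6% and 37.4% of promoter peaks. TGANTCA, the AP-1 site, which differs from the CRE by the length of its spacer, was in 4.07% and 5.64% at promoters and in 12.5% and 12.4% elsewhere. The TATA box (TATAAA) was in 3.51% and 4.79% at promoters. The ZNF143 core (ACTACAATT) was in 3 bound and 31 other promoter peaks. The CTCF motif was in 1.66% of bound and 2.93% of other promoter peaks, and elsewhere in 3.66% and 7.30%.

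The position of the CRE inside the peaks was measured next. The whole length of the bound peaks held 227 CREs in 218 peaks (26.8%), 7 of which had more than 1. The distance from the CRE to the centre of the ZBTB21 peak was a median of 103 bp, and to the centre of the ATAC peak 118 bp. In the other peaks the distance to the ATAC centre was a median of 130 bp over 257 CREs, and 39.3% lay within 100 bp of it, compared with 45.8% in bound peaks. In promoter peaks the CRE lay a median of 30.5 bp upstream of the nearest TSS (quartiles 81 bp upstream and 1.5 bp downstream), and 74.0% of the 154 copies were upstream. The base next to the element, read outward on either side so that G before it equals C after it, was G in 47.6% of 454 flanks of bound peaks and in 34.8% of 514 flanks of the others, and T in 5.73% and 13.2%. The Zfand2a and Amn1 elements above are followed by such a C.

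**Figure D5:**
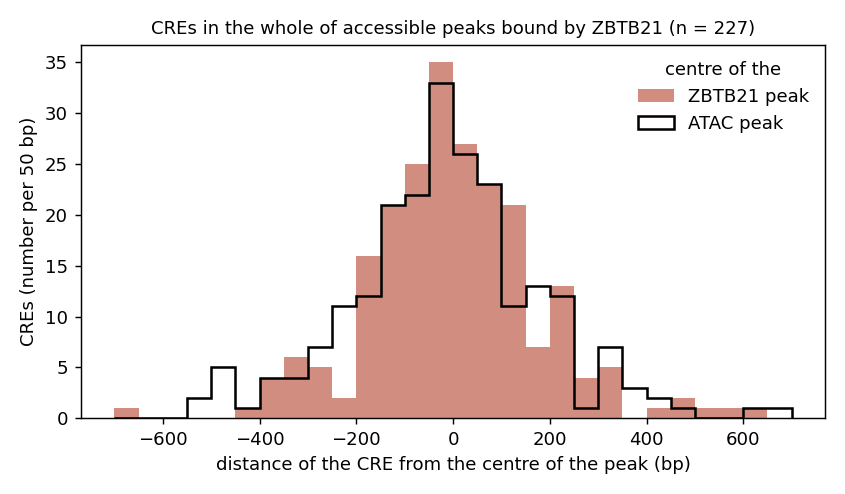
Number of CREs per 50 bp by distance (bp) from the centre of the ZBTB21 peak (filled) and of the ATAC peak (line), for the 227 CREs in bound peaks. Both distributions peak at the centre, with medians of 103 and 118 bp without regard to side, and 5 and 4 CREs lie beyond the 700 bp shown.

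Peaks with and without a CRE in the 300-bp window had close median scores and promoter shares. The 131 bound peaks with a CRE had a median score of 776 and the 683 without it 768, and 64.9% and 66.8% were promoter peaks. Those with a CRE were narrower (median 641 against 769 bp). The window covers a smaller part of a wide peak, so width is not independent of this split. Over their whole length 218 bound peaks held a CRE, so some peaks counted without it hold one outside the window. The ZBTB21 peaks that met an ATAC peak had a CRE in the 300 bp around their own centre in 153 of 801 cases (19.1%, interval 16.5 to 22.0%). The ZBTB21 peaks without an ATAC peak had it in 215 of 1026 (21.0%, interval 18.6 to 23.6%), and these intervals overlap.

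The promoters of 669 genes held a bound peak, of which 614 were protein-coding and 42 produce long non-coding RNAs. This is 2.92% of the 21000 protein-coding genes, and 10.2% of the 5991 that had any ATAC peak at a promoter. The counts of gene groups below are to be read against the latter share. Groups differ in size and some share a promoter, and no group was tested.

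Genes of DNA replication and repair had a bound promoter in 9 of the 33 cases with an ATAC peak (27.3%). Among them were Pcna, the sliding clamp (score 818), the clamp loader subunit Rfc1 (900), the helicase subunits Mcm4 (732) and Mcm5 (762), the origin recognition genes Orc1 (919) and Orc5 (607, with a CRE), Brca1 (803) and the nuclease gene Ercc5 (896). Splicing genes had 9 of 42 (21.4%), among them Snrpc of the U1 particle (903), Prpf38a (919), Sf3b5 (874), Lsm2 (664, with a CRE) and Xab2 (811, with a CRE). Orc1 and Prpf38a share a single bound peak. Cytosolic ribosomal protein genes had 10 of 47 (21.3%), among them Rpl26 (847, with a CRE), Rpl21 (830) and Rpl18 (757, with a CRE). Ribosomal protein genes have many processed copies in the genome, and their peaks are uncertain where reads match more than 1 place.

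Proteasome genes had 5 of 26 (19.2%), with Psma5 at 914 and Psmb2 at 844 with a CRE. Respiratory chain and ATP synthase genes had 9 of 45, with Ndufv1 at 941, Ndufb5 at 927, Atp5g1 at 910 and Sdhb, of succinate dehydrogenase, at 847 with a CRE. Aminoacyl-tRNA synthetase genes had 3 of 13 (Eprs, Mars1 and Qars), and translation initiation factors had 4 of 25 (Eif3d, Eif3h, Eif3k and Eif4a1). Zinc finger genes of the Zfp series had 22 of 178 (12.4%) and mitochondrial ribosomal genes 4 of 40, near the share over all genes. RNA 3'-end and decay genes had 1 of 22, Pabpn1, and the snoRNA host genes 1 of 11, Snhg9. None of the 14 RNA polymerase subunit genes and none of the 13 Zbtb genes that were listed by symbol and had an ATAC peak at a promoter had a bound one. Family members under other symbols are not in these counts. Among them, the polymerase gene Znrd1 (described below) and the BTB zinc finger genes Hic1 (768) and Mynn (699) had bound promoter peaks. The keratin (6), collagen (11) and olfactory receptor (8) genes with an ATAC peak had none either.

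Cohesin genes had 1 bound promoter among 5 with an ATAC peak, that of Cdca5, which encodes sororin, the factor that keeps cohesin on chromatin after replication (score 674, 1263 bp wide). The promoter peaks of Stag2 (731), Pds5b (564), Mau2 (897) and Hdac8 (676) were not bound. A list of 25 textbook CREB targets, drawn up after the CRE counts were seen, had 4 bound promoters among 13 with an ATAC peak. Dusp1, a phosphatase of MAP kinases (score 854), and Ppp1r15a, which directs dephosphorylation of eIF2alpha (864), held a CRE, while Nr4a2 (672) and Pcna had none in the window. The promoter peaks of Bdnf, Crem, Egr1, Icam1, Jun, Junb, Nr4a1, Sst and Vgf were not bound. That of Crem (636) held a CRE in the window. Away from promoters, bound peaks had Fos (18132 bp from its TSS, score 918), Fosb (17195 bp, 670) and Per1 (3637 bp, 927) as the nearest gene. Others were nearest to Junb (1942 bp, 790) and Nr4a1 (20048 bp, 636), whose promoter peaks were not bound. These peaks were also named after their values were seen, and the nearest gene need not be the regulated gene.

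Of 10 listed loci that the study names for mESCs, 4 had a bound ATAC peak at the promoter. They were chosen by the study for ZBTB21 or for loops, so they are not independent evidence. Mmab, an enzyme of cobalamin metabolism, shares its promoter peak with Mvk, the mevalonate kinase gene, in the opposite orientation (chr5:114443751-114444526, score 944). Its CRE lies 245 bp inside the nearest start and 357 bp from the centre of the ATAC peak. Man1b1, a mannosidase of the secretory pathway, had a peak with a score of 892 (chr2:25332286-25333020), Lsm4, a subunit of the U6 snRNA ring, had 707 (chr8:70672908-70673893), and Znrd1, an RNA polymerase I subunit gene that the polymerase list does not hold under this symbol, had 666 (chr17:36958082-36958857). The Znrd1 CRE is 3 bp upstream of the nearest TSS. A ZBTB21 peak but no listed ATAC peak was present within 1 kb of the TSSs of Arih1 and Chd9, with the nearest ATAC peak at 27056 and 11084 bp. Sall1, Ncor1, Pigl and Lrrc75a had neither within 1 kb. Their nearest listed ZBTB21 peaks lay 1783770, 156118, 176044 and 230702 bp away, in that order. The study reports ZBTB21 binding at these loci from signal tracks over regions that span several genes. That is a different measure from a listed peak within 1 kb of a TSS. Rap2a, a further mESC locus of the study that is not among these 10 and was added after its values were seen, had a bound promoter peak with a score of 701 and a CRE (chr14:120477294-120478471).

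The primers with which the study measured ZBTB21 at these loci by ChIP-qPCR were placed on the genome to see how they relate to the peaks. Both Man1b1 primers lay inside the bound peak and the ZBTB21 peak, and so did both for Lsm4 and for Znrd1.
Man1b1 forward, chr2:25332504-25332523, plus strand: tccaaaccgtagtcagtccg
Man1b1 reverse, chr2:25332599-25332618, minus strand: ccctgtgccgttgacgttat
For Mmab, the reverse primer lay inside the bound peak and the forward primer 22 bp outside it, both inside the ZBTB21 peak. The Arih1 primers were in a ZBTB21 peak only. Those of the control that the study calls intergenic were in neither, and both overlapped an annotated exon.

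Bound peaks were found on every chromosome. Their share ran from 1.14% of peaks on chromosome 18 (15 of 1320) to 2.68% on chromosome 9 (61 of 2280) among the autosomes, with 76 bound peaks on chromosome 11, 19 of 759 peaks on X and 1 of 13 on Y.

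Markers were counted for the labelled cell type and its feeder layer, for which the fibroblasts stand. An ATAC peak at a promoter was present for 5 of 15 pluripotency markers and 2 of 15 fibroblast markers. Among all protein-coding genes 5991 of 21000 had one, so these small counts do not settle the cell type. Nanog (805), Pou5f1 (861 and 830), Sall4 (820), Zfp42 (892 and 755) and Prdm14 (680) were among the former, and Thy1 (829) and Pdgfrb (602) were the latter. The pluripotency markers Sox2, Klf4, Klf2, Esrrb, Tfcp2l1, Dppa4, Utf1, Lin28a, Fgf4 and Tdgf1 had no ATAC peak at a promoter. None of these promoter peaks was bound by ZBTB21. The share over all protein-coding genes with such a peak was 10.2%, and the markers are too few to tell their share from it. Away from promoters, bound peaks had Esrrb (48367 bp from its TSS, score 764) and Thy1 (83415 bp, 649) as the nearest gene. What part feeder chromatin has in the list was not tested.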

How the data were processed

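ATAC-seq of untreated V6.5 mESCs (2 replicates) was represented by 1 peak list, named for the condition. The authors deposited mm10 coordinates and a score per peak. Its peak calling and any Tn5 shift are not given in the sources used here. The submitters' processing notes name cutadapt 2.6, Bowtie2 2.3.5.1 and MACS2 2.1.1. The depth of the libraries is unknown. ZBTB21 peaks were the 1827 mESC peaks in the study's supplement. TSSs were the 31647 starts of curated RefSeq transcripts on GRCm38. Peaks with an edge within 1 kb of a TSS were called promoter peaks. GC content and 10 motifs were read in 300 bp around peak centres on 41000 placed peaks. Shares have Wilson 95% intervals. Named genes were the loci named by the study, the extremes of score, width and TSS distance, the ZBTB21 peaks with most ATAC peaks, and genes of listed groups, of which some are not reported here. The members and lists were chosen with earlier results of these data known. Overlap, TSS and motif counts were tested on simulated data. No value column lacked a sample (0). Python 3.11.15, numpy 2.4.6, pandas 2.3.3, scipy 1.17.1 and matplotlib 3.10.9 were used.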

Additional observations from a re-analysis of the deposited data

How the results depend on the processing

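Each summary was recomputed under other overlap rules, a score limit, merged peaks, autosomes only and other TSS sets, and 46 of 54 values stayed within the interval of the reported value (for the number of bound peaks, within 1.5 times of it, 571 to 870). The CRE share was added after the data were seen. With scores above the list's median of 696 only, the share of ZBTB21 peaks with an ATAC peak was 30.9%, since fewer peaks remain, and the median score was 816, which the limit itself raises. The median TSS distance was then 134 bp, and the cause was not tested. That share was 41.5% when the peak centre had to lie in the ZBTB21 peak and 40.3% when most of the peak had to be covered. The median TSS distance was 0 bp from the nearest edge, since most bound peaks cover a TSS. GC content over whole peaks was 57.5%, and 26.8% of whole bound peaks held a CRE. No paired analysis was possible because the list gives no values per replicate. For the same reason no replicate could be left out, and a peak that is missing from the list cannot be told apart from a closed region at this unknown depth.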

Other observations

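All 32896 sequences of 8 bases (each counted together with its reverse complement) were ranked by the difference in share between bound and other peaks, in the 300 bp around the centre. This ranking was chosen after the motif counts were seen. TGACGTCA came first, with 16.1% of bound and 0.363% of other peaks. GACGTCAC, which overlaps it, came second, with 14.3% and 0.393%. CCCCGCCC, a GC box, followed with 21.9% and 8.45%, but at promoters alone its shares were 25.9% and 22.5%. ACTTCCGG, an ETS site, ranked 9 and was in 13.3% of bound and 6.36% of other promoter peaks.

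Shorter and inexact forms of the CRE were also more frequent in bound peaks. The shares of both forms include peaks that hold the exact CRE, which itself contains TGACG. The 5 bases TGACG, on either strand, were in 68.6% of bound and 23.4% of other promoter peaks, and in 48.0% and 10.3% of peaks elsewhere. A CRE with 1 base changed was in 28.3% of bound and 6.27% of other peaks. Of the 2723 peaks with such a changed element and no exact CRE, 209 (7.68%, interval 6.73 to 8.74%) were bound, against 47.3% of those with the exact element.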
